A study of Mus musculus with 6 samples.

Results

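The genes described here are 31 genes of protein folding and degradation in the endoplasmic reticulum (ER), taken by symbol from a given list and sorted by role into sensors, lectin chaperones, disulfide isomerases, translocon, degradation and a remaining group of lumenal proteins. All 31 were among the 24411 symbols of the count tables, and all 31 were among the 13076 genes that passed the filter on low counts. The cells were myotubes of C2C12, a mouse myoblast line grown without limit that fuses into multinucleated muscle cells when serum is lowered, with the genotype given as WT. Differentiated cultures received for 72 h either 10 µM Sardomozide, which blocks S-adenosylmethionine decarboxylase, the Amd1 product that feeds polyamine synthesis, or DMSO, its solvent. Each group has 3 libraries of 1 cell line, and nothing states that they came from separate cultures, so p-values measure only the spread among libraries, and that spread may be technical.

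Proteins that enter the secretory pathway pass through the Sec61 channel into the ER, where sugars are attached, disulfide bonds are formed and lectin and Hsp70-type chaperones hold the chains until they fold. Chains that fail are marked by mannosidases, drawn back through a membrane complex around the ubiquitin ligase HRD1 and degraded by the proteasome. When unfolded chains gather, the membrane sensors ATF6, IRE1 and PERK raise the transcription of chaperones, isomerases and degradation factors, a program called the unfolded protein response. In muscle the same compartment is continuous with the sarcoplasmic reticulum that stores calcium.

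Myotubes given Sardomozide had more Atf6, Atf6b and Herpud1 RNA, by 17.7% to 18.0%, while Pdia6 fell by 9.29%, P4hb fell by 9.73% and Edem2 fell by 13.1%. The other 25 genes did not pass the test, among them every lectin chaperone and every translocon gene. Thus 3 of 31 rose (9.68%) and 3 fell (9.68%), where 7.88% of all 13076 genes rose and 8.45% fell under edgeR's quasi-likelihood test at a Benjamini-Hochberg adjusted p under 0.05. In either direction 19.4% of the 31 passed, close to the background of 16.3%. Calls were more frequent among well expressed genes: of the 6538 genes above the median level, which include 29 of the 31, 22.7% passed, and 20.7% of those 29 did. The 3 rises passed whichever library was left out, and the 3 falls did not (values below). Changes were small throughout: 21 of the 31 genes had an estimate within 0.1 of 0 on the log2 scale, and the median size of change was 0.06, against 0.12 over all genes tested and 0.09 over those above the median level.

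**Figure D1:**
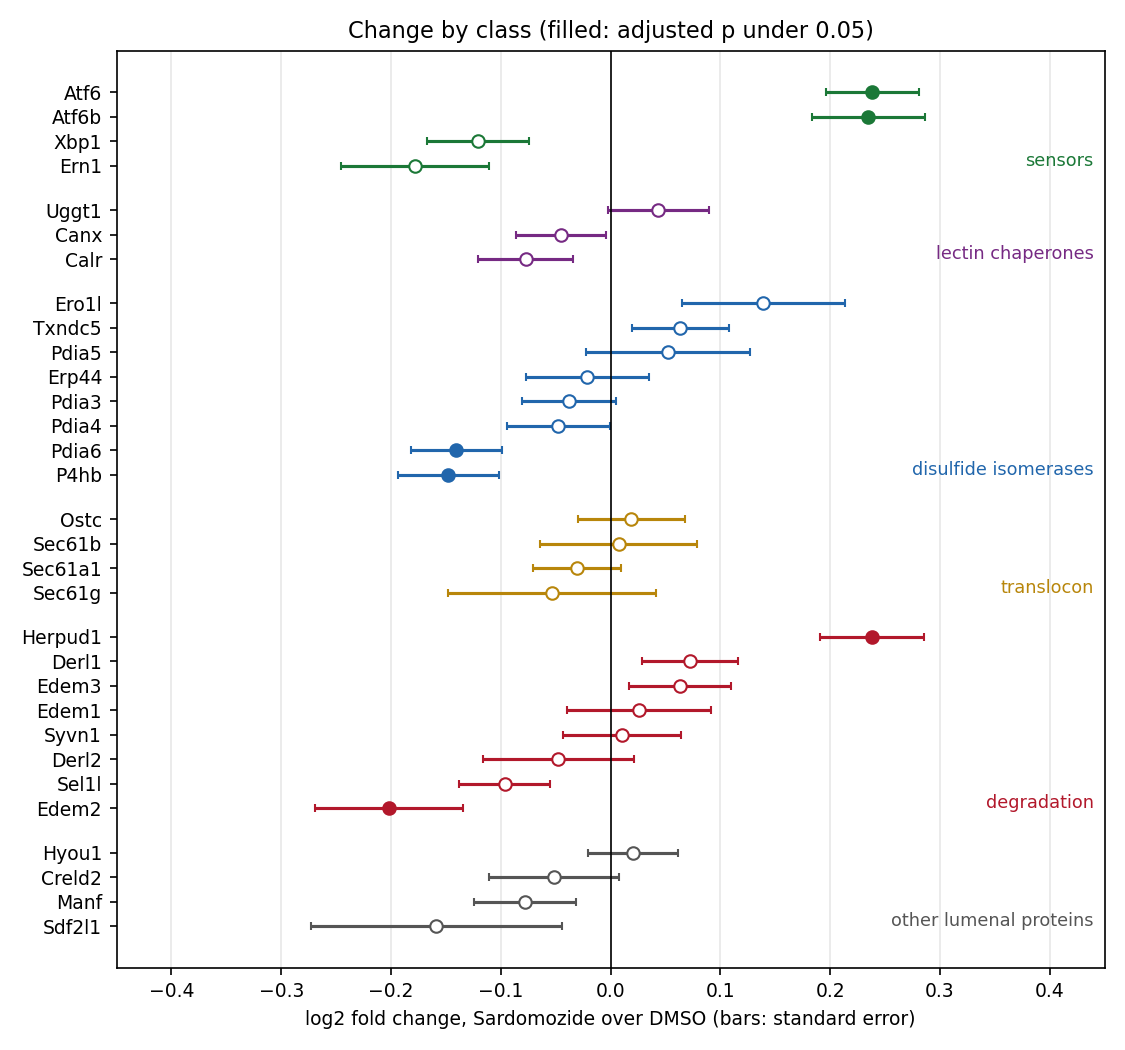
Log2 fold change of Sardomozide over DMSO for each of the 31 genes, grouped by class, with the standard error as a bar (3 libraries a group). Filled points passed at an adjusted p under 0.05: Atf6, Atf6b and Herpud1 lie to the right of 0, and Pdia6, P4hb and Edem2 to the left.

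Library totals ran from 30820423 to 36709804 counts with Sardomozide and from 25496323 to 32108033 with DMSO. The 31 genes together took 0.606%, 0.618% and 0.616% of the counts in the Sardomozide libraries and 0.625%, 0.616% and 0.625% in the DMSO libraries, so the groups overlapped. DMSO replicate 1 stood apart on the second principal component, at −19.2 against 8.72 and 12.5 for DMSO replicates 2 and 3. Amd1 had 0 counts in the Sardomozide libraries and 0, 3 and 0 in the DMSO libraries, and Amd2 had 0 in all 6. These counts give no check of the target. Whether they reflect low expression or reads lost in counting was not tested. All 8 myotube markers passed the filter, and their summed level was 15937 to 18840 CPM (counts scaled to library size) with Sardomozide and 15996 to 16985 CPM with DMSO. The highest of these sums rests on the titin gene Ttn, with 4043 CPM in Sardomozide replicate 2, against 1610 and 1372 CPM in the other Sardomozide libraries and 1500.3 to 1745 CPM with DMSO. Without Ttn the other 7 markers summed to 14565 to 15649 CPM with Sardomozide and 14251 to 15259 CPM with DMSO. Of the 8, Myog rose (1336, 1342 and 1261 CPM, against 1104, 1102 and 1121 CPM) and the perinatal myosin Myh8 fell (435, 360 and 396 CPM, against 598, 618 and 626 CPM). The 6 markers of dividing or undifferentiated myoblasts summed to 360.3 to 394 CPM with Sardomozide and 333 to 353 CPM with DMSO, without overlap. Of the 6, 1 rose, Mki67 (16.7%), where 7.88% of all genes tested rose. Taken singly, only Mki67 had groups that did not overlap, where 17.0% of all genes tested were higher without overlap. Pax7, Top2a, Ccnb1 and Cdk1 overlapped, as did Myf5, whose estimate was lower (log2 fold change −0.15). In bulk RNA, a different share of such cells and a different amount of RNA per cell cannot be told apart, and their part in the results below was not tested. The 8 markers of other cell types summed to at most 2.56 CPM with Sardomozide and at most 2.55 CPM with DMSO, with Ptprc, Adipoq and Plin1 at 0 in all 6 libraries. The 5 markers of secreted matrix summed to 20334 to 23531 CPM with Sardomozide and 20165 to 24017 CPM with DMSO, and none passed.

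Most of the 31 genes were well expressed: 29 lay above the median level of the genes tested. Per kilobase of the principal transcript, Calr (calreticulin) was highest at 562 CPM per kb with Sardomozide and 593 CPM per kb with DMSO. P4hb, the founding protein disulfide isomerase, came next with 219 CPM per kb with Sardomozide and 242 CPM per kb with DMSO. With DMSO, Pdia3, Herpud1, Txndc5, Pdia6 and Canx followed between 158 and 130.0 CPM per kb. The lowest level was that of Ern1, 4.09 CPM per kb with Sardomozide and 4.63 CPM per kb with DMSO. The transcripts that these cells use are not known, and for 11 of the 31 genes the sum of all annotated exons is over 1.5 times the principal transcript, so neighbours in this order are uncertain.

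**Figure D2:**
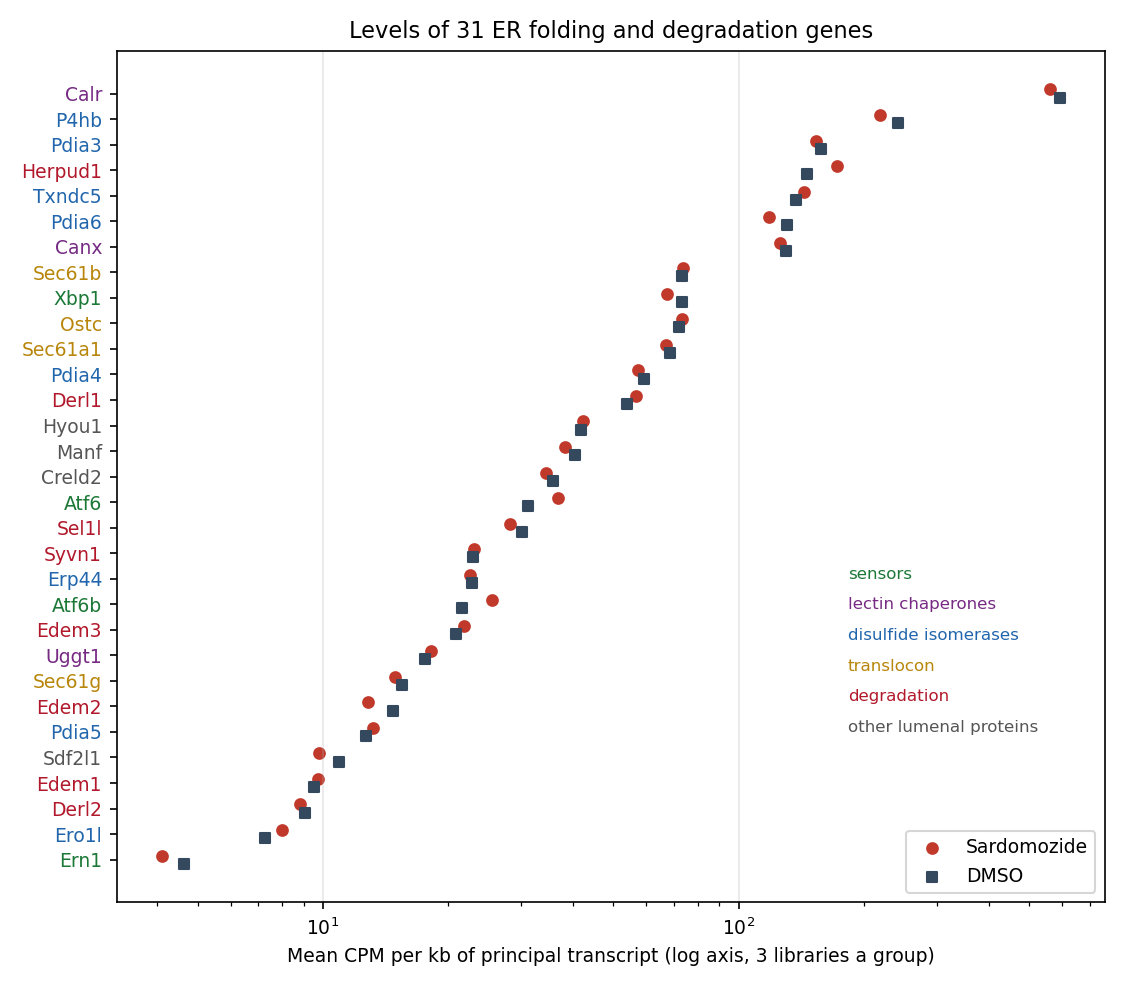
Mean level of each gene per kilobase of its principal transcript on a log axis, circles for Sardomozide and squares for DMSO (3 libraries a group), sorted by the DMSO level. Calr is highest (562 CPM per kb with Sardomozide, 593 with DMSO) and Ern1 lowest (4.09 with Sardomozide, 4.63 with DMSO). Label colours mark the classes.

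Targets of ATF6 and XBP1 are known for a promoter element, the ER stress element, in which CCAAT is followed after 9 bases by CCACG, and for a second form in which ATTGG and CCACG are 1 base apart. Promoter windows of RefSeq (GRCm38.p6, 250 bases before to 50 after the start) were at hand for 25 of the 31 genes, and 6 of the 25 held an exact copy of either element on either strand, 5 of the first form and 1 of the second. Among windows of all genes, 51 of 32851 (0.155%) held one. Counted by gene, as for the members, 40 of 17491 protein-coding genes (0.229%) held one. The stretches around these 6 elements are shown because they let the changes of these genes be read beside a shared sequence. Each is given 5′ to 3′ in the direction of its gene, with the conserved letters of the element in capitals, and an element on the opposite strand reads as its reverse complement.
Herpud1 (chr8:94386347-94386417, + strand): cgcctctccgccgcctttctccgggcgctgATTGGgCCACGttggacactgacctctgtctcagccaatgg
Pdia6 (chr12:17266461-17266539, + strand): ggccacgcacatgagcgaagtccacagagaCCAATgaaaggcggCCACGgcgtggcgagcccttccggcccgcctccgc
Calr (chr8:84847045-84847123, - strand): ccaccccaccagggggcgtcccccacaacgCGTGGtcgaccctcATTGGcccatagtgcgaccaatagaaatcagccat
Canx (chr11:50325770-50325848, - strand): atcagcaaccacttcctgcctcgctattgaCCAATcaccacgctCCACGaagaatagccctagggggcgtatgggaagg
Syvn1 (chr19:6046502-6046580, + strand): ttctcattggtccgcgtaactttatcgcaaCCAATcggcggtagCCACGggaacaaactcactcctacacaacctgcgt
Creld2 (chr15:88819490-88819568, + strand): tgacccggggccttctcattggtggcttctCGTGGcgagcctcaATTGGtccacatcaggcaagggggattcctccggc

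The 6 genes with an element did not share a direction. Herpud1 rose, Pdia6 fell, and Calr, Canx, Syvn1 and Creld2 did not pass. Their log2 fold changes ran from −0.14 to 0.24 with a median of −0.05, and those of the 19 genes with a window and no exact element ran from −0.20 to 0.23 with a median of −0.04. Of these 19 genes 1 rose and 2 fell. The 6 genes without a window, left out here, were Atf6, which rose, and Sec61a1, Ostc, Derl1, Hyou1 and Manf, which did not pass. No exact copy in a window says only that these letters are not there.

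Among the sensors, both ATF6 genes rose, and Ern1 and Xbp1 of the IRE1 branch did not pass. The rises make 50% of the 4 genes, where 7.88% of all genes tested and 11.1% of those above the median level rose. Atf6 (chromosome 1, 170704674 to 170867771, GRCm38) encodes a transcription factor held in the ER membrane and freed by cleavage in the Golgi. It had 276, 269.8 and 255 CPM in the Sardomozide libraries, against 226, 223 and 229 CPM in the DMSO libraries. All Sardomozide libraries lay above all DMSO libraries, and the log2 fold change was 0.24 ± 0.043 (standard error; edgeR adjusted p = 0.000601). Atf6b (chromosome 17, 34647146 to 34655074), its paralogue and a weaker activator, had 63.8, 64.8 and 67.7 CPM with Sardomozide, against 56.2, 54.9 and 55.6 CPM with DMSO. Its groups did not overlap either (log2 fold change 0.23 ± 0.052, edgeR adjusted p = 0.0034). Atf6 counts were 4.33, 4.16 and 3.76 times those of Atf6b with Sardomozide and 4.03, 4.07 and 4.11 times with DMSO, so this ratio overlapped between the groups.

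Ern1, the gene of the sensor kinase and ribonuclease IRE1α, had 30.1, 27.6 and 27.6 CPM with Sardomozide, against 31.7, 32.6 and 32.2 CPM with DMSO. Every Sardomozide library was lower, but the gene did not pass (log2 fold change −0.18 ± 0.067, edgeR adjusted p = 0.0763). It passed as a fall without Sardomozide replicate 1 (adjusted p = 0.0439). Xbp1, whose mRNA IRE1α splices to make an active transcription factor, had 137, 148 and 145 CPM with Sardomozide and 165, 152 and 150.4 CPM with DMSO (log2 fold change −0.12 ± 0.047, edgeR adjusted p = 0.0845). These groups were separate by a narrow margin. Counts per gene do not separate spliced from unspliced Xbp1. The count of Atf6 relative to Xbp1 in the same library, which no scaling can alter, was 2.01, 1.83 and 1.76 with Sardomozide, against 1.37, 1.47 and 1.52 with DMSO. Over the 4 sensor genes the median log2 fold change was 0.06, and it was 0.08 without DMSO replicate 1.

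**Figure D3:**
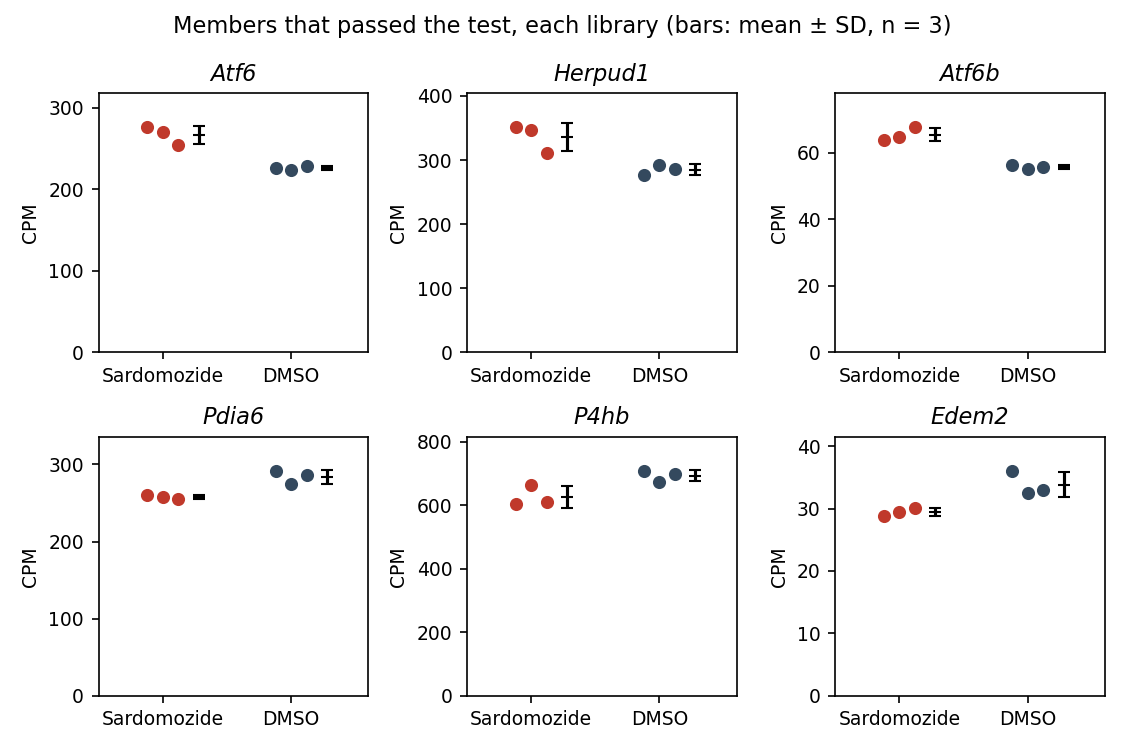
Level in CPM of the 6 genes that passed the test, 1 point per library, with the mean and standard deviation of each group beside the points (n = 3) and the axis from 0. Sardomozide libraries lie above all DMSO libraries for Atf6, Herpud1 and Atf6b and below all of them for Pdia6, P4hb and Edem2.

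None of the 3 lectin chaperone genes passed, and their median log2 fold change was −0.05. Among genes of the enzymes that trim glucose for these lectins, Prkcsh and Mogs were higher (values below). Ganab, in the same list, did not pass (2.43%, 95% interval −5.02% to 10.5%). Calr and Canx (calnexin) hold glycoproteins that carry a single glucose, and the glucosyltransferase of Uggt1 returns misfolded ones to them. Calr had 1262, 1202 and 1217 CPM with Sardomozide, against 1304, 1258 and 1321 CPM with DMSO, with 1 Sardomozide library inside the DMSO range (log2 fold change −0.08 ± 0.043, edgeR adjusted p = 0.246). For Canx the values were 544, 528 and 546 CPM with Sardomozide and 554, 564 and 552 CPM with DMSO. They did not overlap, yet the difference was −3.09% with a 95% interval of −8.62% to 2.78% from the edgeR fit, unadjusted for the number of genes. Uggt1 differed by 3.05% (−3.57% to 10.1%). Relative to Calr in the same library, Uggt1 counts were 0.130, 0.142 and 0.130 with Sardomozide, against 0.129, 0.123 and 0.118 with DMSO, and the ratio of Canx to Calr overlapped between the groups.

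Of the 8 disulfide isomerase genes 2 fell, 0 rose and 6 did not pass, with a median log2 fold change of −0.03. The falls make 25% of the class, where 8.45% of all genes tested and 11.7% of those above the median level fell. P4hb (chromosome 11, 120560298 to 120573253), which is also the beta subunit of collagen prolyl 4-hydroxylase, had 603, 664 and 610.3 CPM with Sardomozide and 709, 673 and 699 CPM with DMSO. The groups came close, at Sardomozide replicate 2 and DMSO replicate 2, and did not overlap (log2 fold change −0.15 ± 0.046, edgeR adjusted p = 0.0316). Pdia6 (chromosome 12, 17266545 to 17284770), an isomerase that binds the Hsp70 chaperone BiP and curbs IRE1 signalling, had 261, 257 and 256 CPM with Sardomozide and 292, 274 and 287 CPM with DMSO. Here the Sardomozide libraries were close to each other and all lower (log2 fold change −0.14 ± 0.041, edgeR adjusted p = 0.0235). Pdia6 was not called without Sardomozide replicate 3, DMSO replicate 1 or DMSO replicate 3 (adjusted p = 0.0733, 0.121 and 0.0966). P4hb was not called without any of these (0.115, 0.137 and 0.117) or without Sardomozide replicate 1 (0.0856).

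The other isomerases and the oxidase overlapped between the groups. Ero1l, now named Ero1a, encodes the oxidase that recharges P4HB, and had 37.1, 37.1 and 31.6 CPM with Sardomozide, against 30.8, 30.9 and 34.3 CPM with DMSO. Sardomozide replicates 1 and 2 were above every DMSO library and replicate 3 was not (log2 fold change 0.14 ± 0.074, edgeR adjusted p = 0.218). Relative to P4hb in the same library, Ero1l counts were 0.0616, 0.0558 and 0.0517 with Sardomozide and 0.0435, 0.0460 and 0.0492 with DMSO, which did not overlap. Txndc5, an isomerase with 3 thioredoxin domains, had 395, 429 and 400.3 CPM with Sardomozide and 401, 378 and 393 CPM with DMSO (4.50%, 95% interval −1.94% to 11.3%). Its count relative to Pdia6 was 1.52, 1.67 and 1.57 with Sardomozide, against 1.37, 1.38 and 1.37 with DMSO, and the groups did not overlap. Antisense and neighbouring genes cover 11.9% of the exon bases of Txndc5, and without a stated use of strand their reads cannot be told apart. Pdia3, the isomerase that works with calnexin and calreticulin, Pdia4, Pdia5 and Erp44, which retrieves clients from the Golgi, had differences between −3.24% and 3.70%.

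The translocon genes had the smallest differences of the 6 classes, with log2 fold changes from −0.05 to 0.02 and a median of −0.01, against a median of −0.0008 over all genes tested. Sec61a1, the channel subunit, had 209, 213 and 215 CPM with Sardomozide, against 218, 217 and 216 CPM with DMSO. The groups did not overlap, but the difference was −2.09% (95% interval −7.58% to 3.72%). An antisense gene covers 8.16% of the exon bases of Sec61a1, with the same limit as for Txndc5. Sec61b and Sec61g, the small subunits, varied more between libraries of a group than between groups. Sec61b had 37.3, 43.3 and 43.9 CPM with Sardomozide and 44.3, 41.6 and 38.0 CPM with DMSO, and Sec61g had 23.9, 30.8 and 28.8 CPM with Sardomozide and 25.9, 32.0 and 28.5 CPM with DMSO. Ostc, a subunit of the oligosaccharyltransferase that docks at the channel, differed by 1.32% (−5.61% to 8.75%). RefSeq lists a pseudogene copy of Sec61g, so reads may have been shared or lost.

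Of the 8 degradation genes 1 rose, 1 fell and 6 did not pass, with a median log2 fold change of 0.02. That is 12.5% in each direction, where 7.88% of all genes tested rose and 8.45% fell. Above the median level 11.1% of genes rose and 11.7% fell. Herpud1 (chromosome 8, 94386438 to 94395377) encodes HERP, a short-lived membrane protein that helps assemble the HRD1 complex and is itself a target of the unfolded protein response. It had 351, 347 and 311 CPM with Sardomozide, against 277, 292 and 287 CPM with DMSO. Sardomozide replicate 3 was the lowest of its group and still above every DMSO library (log2 fold change 0.24 ± 0.048, edgeR adjusted p = 0.00164). Sel1l and Syvn1 encode the adaptor SEL1L and the ligase HRD1 itself. Sel1l had 179.5, 177 and 176 CPM with Sardomozide and 189, 195 and 185 CPM with DMSO (log2 fold change −0.10 ± 0.041, edgeR adjusted p = 0.119), and Syvn1 differed by 0.727% (95% interval −6.83% to 8.90%). Herpud1 counts relative to Sel1l were 1.96, 1.96 and 1.77 with Sardomozide, against 1.46, 1.5 and 1.55 with DMSO.

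The 3 EDEM genes encode mannosidase-like proteins that mark glycoproteins for disposal, and they did not share a direction. Edem2 (chromosome 2, 155701677 to 155729475), whose product starts the trimming, had 28.8, 29.4 and 30.1 CPM with Sardomozide, against 36.1, 32.5 and 33.0 CPM with DMSO. The groups were separate (log2 fold change −0.20 ± 0.067, edgeR adjusted p = 0.0442), and the call was lost whichever library was left out (adjusted p = 0.0558 to 0.207), as in DESeq2 (0.0567) and limma-voom (0.052). Edem3 had 141, 144 and 129.6 CPM with Sardomozide and 131, 132 and 134 CPM with DMSO (4.49%, 95% interval −2.26% to 11.7%). The ratio of Edem3 to Edem2 counts was 4.89, 4.90 and 4.31 with Sardomozide, against 3.63, 4.05 and 4.06 with DMSO. Edem1 differed by 1.83% and spread widely in both groups, from 51.1 to 61.3 CPM with Sardomozide and from 52.0 to 58.2 CPM with DMSO. Derl1 and Derl2 encode derlins, thought to form the exit channel: Derl1 had 177, 185 and 179 CPM with Sardomozide and 164, 175 and 176 CPM with DMSO, separate by a narrow margin (log2 fold change 0.07 ± 0.044, edgeR adjusted p = 0.283), and Derl2 differed by −3.26%.

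The 10 ratios within a library were chosen after the counts were seen, and 5 of the 6 that did not overlap between the groups hold a gene that passed the test, so they add no support of their own. Over all 465 pairs of the 31 genes, 36.3% had ratios that did not overlap, with 70.3% of the pairs that hold a gene that passed and 17.7% of the other pairs.

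**Figure D4:**
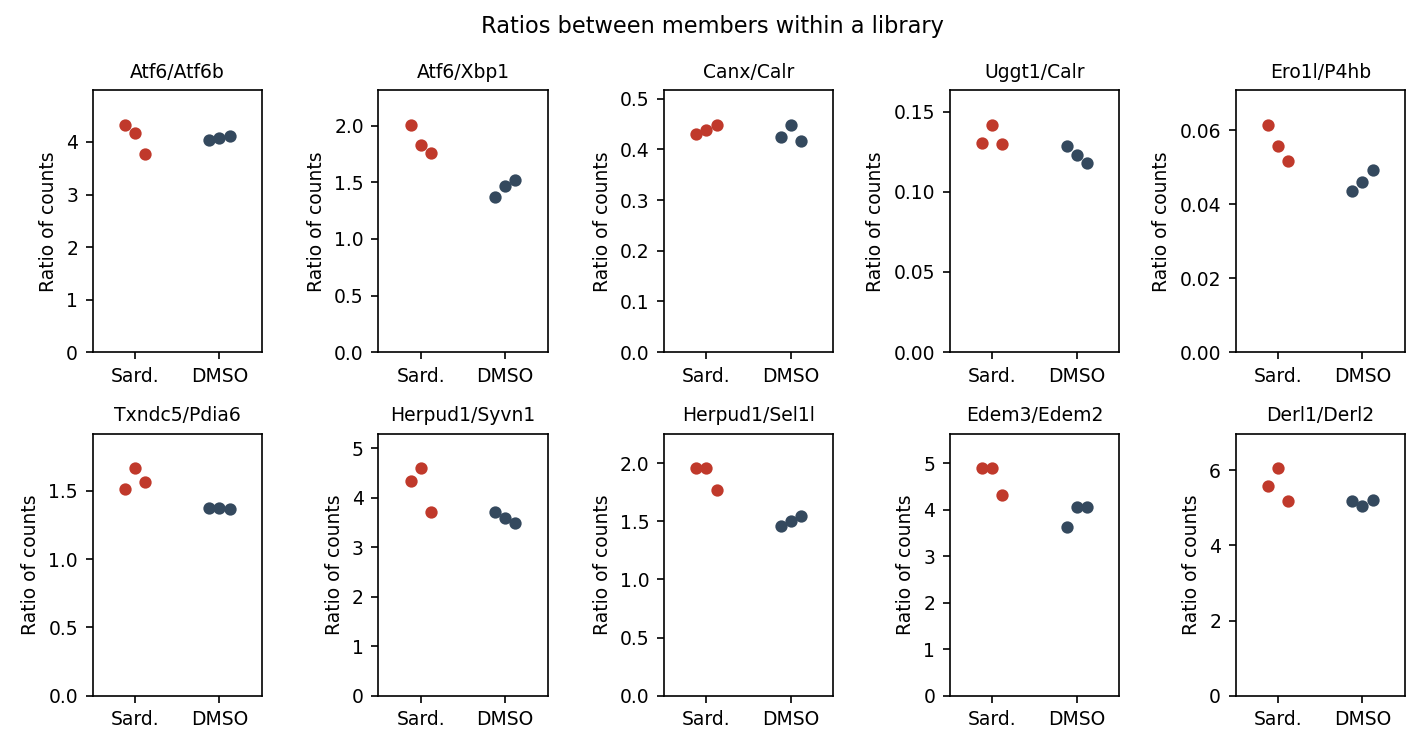
Ratios of the counts of 2 genes within a library, 1 point per library, Sardomozide left of DMSO, each axis from 0. Atf6/Xbp1, Uggt1/Calr, Ero1l/P4hb, Txndc5/Pdia6, Herpud1/Sel1l and Edem3/Edem2 were higher in all 3 Sardomozide libraries than in any DMSO library, and Atf6/Atf6b, Canx/Calr, Herpud1/Syvn1 and Derl1/Derl2 overlapped, where 36.3% of all pairs of the 31 genes did not overlap.

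The 4 remaining lumenal proteins are known as sensitive targets of the unfolded protein response, and none passed (median log2 fold change −0.06). Hyou1, a large Hsp70-like exchange factor of BiP, had 186, 192 and 192 CPM with Sardomozide and 188, 189 and 185 CPM with DMSO (1.41%, 95% interval −4.40% to 7.56%). Manf, a secreted survival factor, had 85.3, 87.9 and 84.7 CPM with Sardomozide, all below the 93.0, 91.2 and 88.1 CPM with DMSO (log2 fold change −0.08 ± 0.046, edgeR adjusted p = 0.278). Antisense and neighbouring genes cover 9.25% of the exon bases of Manf, with the same limit as for Txndc5. Creld2, a cysteine-rich lumenal protein, differed by −3.51% (−11.4% to 5.09%). Sdf2l1, a partner of lumenal J proteins, was the lowest of the 31 in CPM and the least precise. It had 9.71, 10.3 and 12.6 CPM with Sardomozide and 13.1, 11.5 and 11.8 CPM with DMSO, with a standard error of 0.114 on the log2 scale, against 0.040 for Sec61a1. Counting error alone would give Sdf2l1 a standard error of 0.062.

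Read over all 31 genes, the groups did not overlap for 4 that were higher (12.9%) and 9 that were lower (29.0%). Over all genes tested, 17.0% and 16.5% did so. These background shares were not matched for level, and 29 of the 31 lie above the median level. The 4 were Atf6, Atf6b, Herpud1 and Derl1, and the 9 were Pdia6, P4hb, Edem2, Ern1, Xbp1, Canx, Sec61a1, Sel1l and Manf. The median log2 fold change of the 31 was −0.03. For 23 of the 25 genes that did not pass, the 95% interval lay within 20% of no change on either side, and for 20 within 15%. The exceptions to 20% were Ero1l (−1.04% to 22.6%) and Sdf2l1 (−24.1% to 5.66%). Every change that passed was under 20%, so this bound cannot show that the 23 changed less than those. The intervals of Ern1 (−19.8% to −2.62%), Xbp1 (−14.0% to −1.60%) and Sel1l (−11.9% to −0.739%) lay below 0.

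**Figure D5:**
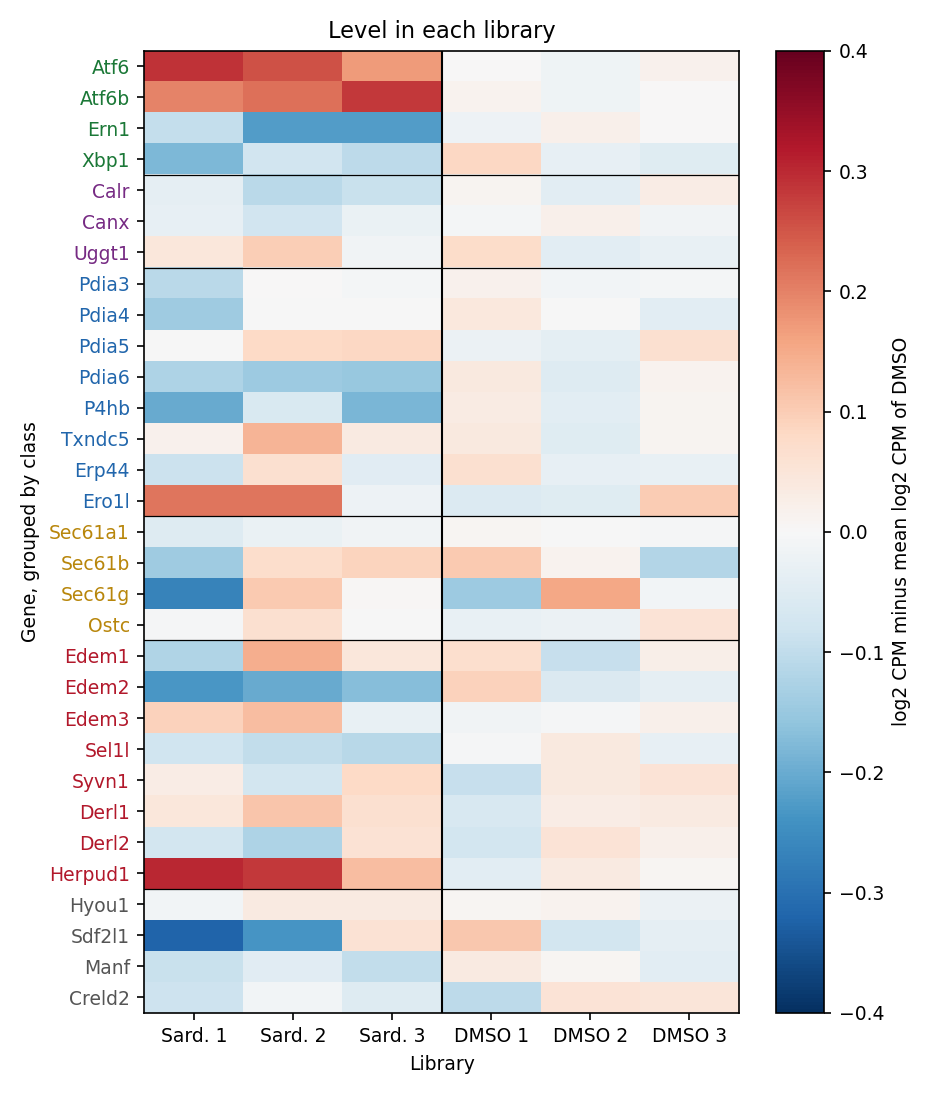
Log2 CPM of each gene in each library minus its mean log2 CPM over the DMSO libraries, with Sardomozide libraries (Sard.) left of the line and genes grouped by class. Atf6, Atf6b and Herpud1 are red in all 3 Sardomozide libraries. Edem2, P4hb and Pdia6 are below the DMSO mean (blue) in all 3, with P4hb only faintly so in Sardomozide replicate 2. Sec61g and Edem1 vary among libraries of a group.

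Other genes of the same pathway passed about as often as genes in general. Of 82 tested genes in 7 further lists, 8 rose and 5 fell, or 15.9% against the background of 16.3%. Among all genes above the median level 22.7% passed, and the 82 were not matched for level. Hspa5, the gene of the Hsp70 chaperone BiP and the usual marker of ER stress, had 682, 717 and 726 CPM with Sardomozide and 756, 766 and 732 CPM with DMSO (log2 fold change −0.09 ± 0.043, edgeR adjusted p = 0.195). Hsp90b1, the lumenal Hsp90, Eif2ak3, the gene of the sensor PERK, and Ddit3, which encodes the stress factor CHOP, had log2 fold changes of −0.07, −0.04 and 0.01 and did not pass. Of 9 lumenal Hsp70, Hsp90 and J protein genes 0 rose and 1 fell (11.1%, where 8.45% of all genes tested fell), the J protein gene Dnajb11 (−0.14 ± 0.042, edgeR adjusted p = 0.031). A further list of 7 genes holds the PERK arm, the proteases of ATF6 and other ER membrane proteins. Of these 0 rose and 1 fell (14.3%), Wfs1, which encodes wolframin, one of the other ER membrane proteins (−0.21 ± 0.049, edgeR adjusted p = 0.00569).

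Of 8 glycan trimming and lectin genes 3 rose (37.5%) and 0 fell, where 7.88% of all genes tested rose and 8.45% fell. Of all genes above the median level 11.1% rose and 11.7% fell. Prkcsh, the beta subunit of glucosidase II, and Mogs, glucosidase I, were at 0.16 ± 0.043 and 0.18 ± 0.059 on the log2 scale (edgeR adjusted p = 0.012 and 0.0367). The other gene that rose was Man1b1, a trimming mannosidase (0.14 ± 0.045, edgeR adjusted p = 0.0414), named here after its values were seen. Of 12 other thioredoxin-fold genes 2 rose (16.7%), Tmx2 and Tmx4 (0.23 and 0.16). In the same list 1 fell (8.33%), Ero1lb, the second oxidase gene (5.40, 4.73 and 5.19 CPM with Sardomozide, against 7.4, 6.44 and 6.88 CPM with DMSO). In the translocation list of 17 genes, Srpr and Srprb, the subunits of the receptor that brings ribosomes to the channel, both rose (0.22 ± 0.041 and 0.20 ± 0.047, edgeR adjusted p = 0.000892 and 0.00574). Sec63, a channel partner that recruits BiP, fell (−0.15 ± 0.044, edgeR adjusted p = 0.0229). Thus 11.8% of this list rose and 5.88% fell. Of 10 oligosaccharyltransferase genes 0 rose and 1 fell (10%), Magt1, a subunit with an oxidoreductase fold (−0.26 ± 0.051, edgeR adjusted p = 0.00131). Of 19 other degradation genes 0 fell and 1 rose (5.26%), Fam8a1, a further cofactor of the HRD1 complex. It had 63.2, 61.6 and 67.5 CPM in the Sardomozide libraries and 53.3, 52.8 and 55.6 CPM in the DMSO libraries (0.25 ± 0.054, edgeR adjusted p = 0.0033). Srpr, Srprb, Magt1, Tmx2 and Fam8a1 passed whichever library was left out. Wfs1 was lost without DMSO replicate 3 (adjusted p = 0.0559), Prkcsh without Sardomozide replicate 3 or DMSO replicate 1, and Mogs, Tmx4, Sec63, Dnajb11 and Ero1lb without at least 3 of the 6 libraries in turn. Man1b1 was lost whichever library was left out.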

How the data were processed

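RNA-seq read counts of 6 libraries were analysed, grouped by the labels. The authors deposited raw counts per gene symbol, 1 table per library. STAR, StringTie, DESeq2, GRCm38 and mm10 appear in the submitters' processing notes. The sources used here do not give versions, roles, annotation, strand setting or the handling of reads with several matches, so genes that overlap or have copies can have gained or lost reads.

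Genes were filtered with filterByExpr (at least 10 scaled counts in enough libraries, 15 in total), scaled by TMM and tested in edgeR 4.0.16 under R 4.3.3 by quasi-likelihood (two-sided, robust, treatment only), with Benjamini-Hochberg adjustment over 13076 genes and a threshold of 0.05. CPM uses TMM-scaled sizes. Standard errors came from each fold change and its F statistic, and 95% intervals from these. A count of 0 allows up to 3 counts, 0.0817 to 0.118 CPM, for counting error only. Replicates differed by more than sampling noise (chi-square per degree of freedom 5.45 to 16.1).

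All 31 members are named, with Hspa5, Hsp90b1, Eif2ak3, Ddit3 and up to 2 called genes per further list and direction. Ganab and Man1b1 were added after their values were seen. Myog, Myh8 and Mki67 are named as the called markers. Members, classes and lists were chosen with earlier results of these data known, and the ratios after the counts were seen. Positions and transcript lengths come from GENCODE M21 (GRCm38), promoters from RefSeq (GRCm38.p6). Fits were tested on simulated counts. Alternatives were RLE or no scaling factors, no filter, a stricter filter (mean CPM of at least 5), DESeq2 1.42.0, limma-voom (limma 3.58.1), no robustness, a replicate block, a threshold of 0.01, each library left out, and, added after seeing the data, removal of trends on GC content and length without and with the block.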

Additional observations from a re-analysis of the deposited data

How the results depend on the processing

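Atf6, Atf6b and Herpud1 rose under all 17 alternatives, with adjusted p at most 0.0229 and log2 fold changes of 0.21 to 0.29. Members that fell numbered 3 under RLE or no scaling factors, no filter, the stricter filter, estimation without robustness and removal of GC and length trends, and 2 in DESeq2 and limma-voom. There were 0 at a threshold of 0.01, where 501 genes in all rose and 578 fell. Without a library the members that fell numbered 0 to 2: 0 without Sardomozide replicate 3, DMSO replicate 1 or DMSO replicate 3, and 2, Ern1 among them, without Sardomozide replicate 1. Over all genes, 1030 rose and 1105 fell, and without a library 620 to 927 rose and 706 to 1025 fell, fewest without DMSO replicate 1. These fits have fewer samples, and beyond that the cause was not tested.

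With the replicate block 0 members fell (adjusted p = 0.0504, 0.0701 and 0.0699 for Pdia6, P4hb and Edem2), and 1, Pdia6, with the block and the trends removed. The samples share only a number: deviations of same-numbered libraries correlated at 0.0219, −0.0233 and −0.0178. Only Sardomozide replicate 1 correlated best with its own number, at 0.0219 against 0.0217 with DMSO replicate 3.

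The median log2 fold change of the sensors, 0.057 in all libraries, ran from 0.0415 to 0.0799 without a library, highest without DMSO replicate 1. Of 527 estimates for members under alternatives, 491 kept direction and side of the threshold, 23 lost the call, 1 gained it and 12 changed sign. All 12 belong to fits without a library and to genes that did not pass: over such fits Erp44 ran from −0.0656 to 0.0108, Sec61b from −0.0494 to 0.0789, Sec61g from −0.135 to 0.0482, Ostc from −0.00429 to 0.0470, Edem1 from −0.0365 to 0.0958 and Syvn1 from −0.0333 to 0.0514. Sdf2l1 had the fewest counts, 332 to 394 a library. Counting error alone would give its log2 fold change a standard error of 0.062, and the fitted one was 0.114.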
